A study of Homo sapiens with 6 samples.

Results

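The genes described here are 33 genes of homologous recombination, the Fanconi anemia pathway, the DNA damage checkpoint and mismatch repair, chosen by name as rows of a table of 20263 human genes. All 33 had a row and all 33 passed the filter on low counts. Gene expression was measured by RNA sequencing of total RNA from HCCLM3, a human hepatocellular carcinoma line. Cells were kept for 24 h with CC-885 (3 libraries) or with its solvent DMSO (3 libraries), in serum-containing medium in both groups, and no dose is stated in the labels. CC-885 is a small molecule that binds cereblon, the part of a CUL4 ubiquitin ligase that selects substrates, and turns that ligase on proteins such as the translation termination factor GSPT1. HCCLM3 is a single line grown in culture, and nothing in the labels ties the 3 libraries of a treatment to separate cultures. P-values therefore measure spread among these libraries only, and that spread may be technical.

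As background, homologous recombination repairs a DNA double-strand break by copying the sister chromatid. Nucleases first cut back the broken ends, a step called resection, and mediators led by BRCA2 then load a recombinase on the single strands. The Fanconi anemia pathway removes crosslinks between DNA strands: a core complex of FANC proteins attaches ubiquitin to the FANCD2-FANCI pair, which calls in nucleases and recombination proteins. The kinases ATM and ATR signal breaks and stalled forks, and mismatch repair corrects errors of replication. Many of these genes are transcribed most strongly in late G1 and S phase.

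The libraries held 30432509 to 39809131 counts in total, and a repair gene had between 109 and 11718 counts in a library, so no repair gene was near the limit of detection. Libraries of a group had correlations of log2 CPM of at least 0.977, and those of different groups of at most 0.946. CPM are counts scaled to library size, here with TMM factors. Of 20 markers of hepatocytes and liver carcinoma, 11 were at 0 counts in every library, among them ALB, AFP, APOB, TTR and GPC3. Only 4 of the 20 passed the filter, of which 0 were higher (0%) and 2 lower (50%) with CC-885. Among all tested genes these shares were 25.8% and 26.8%. The summed level of the 20 was 1366 to 1658 CPM under CC-885 and 1809 to 2214 CPM in DMSO, and came almost wholly from KRT8 and KRT18, keratins of simple epithelia (named after their values were seen). The secreted liver proteins in the list were thus at or near 0 in libraries labelled as liver cancer cells. Of 15 markers of blood, endothelial and stromal cells, 4 were at 0 everywhere (PTPRC, CD3E, LYZ and LUM), and their summed level was 160 to 194 CPM under CC-885 and 165 to 195 CPM in DMSO. Of the 10 that were tested, 3 were higher (30%) and 2 lower (20%) with CC-885, beside the same 25.8% and 26.8% of all tested genes. The part of these markers in the results below was not tested.

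With CC-885, 13 of the 33 repair genes were higher and 3 were lower, while 17 did not pass the test (edgeR quasi-likelihood test, adjusted p below 0.05 over 13444 genes). Of all tested genes 25.8% were called higher and 26.8% lower, or 52.6% in either direction, against 39.4% and 9.09% of the repair genes. The 33 genes were chosen with earlier results of these data known, so the difference in these shares is a description only. Their median log2 fold change was 0.20, where that of all tested genes was -0.04. In single libraries, the median deviation of the repair genes from their group means had an SD of 0.10 (log2 CPM). That SD is not an error of the 0.20. The median log2 fold change was 0.11 without DMSO replicate 3, and 0.075 when the fit took in GC content and transcript length as offsets, where 6 repair genes were lower. The higher genes were EXO1, BARD1, BRCA2, FANCB, FANCA, MSH6, RAD54L, RBBP8, PALB2, BLM, FANCE, CHEK1 and FANCG. FANCF, ATM and RAD51D were lower. A change of at least 2-fold was called for 4 higher genes (EXO1, BARD1, BRCA2 and FANCB) and for 1 lower gene (FANCF), or 12.1% and 3.03% of the list, beside 8.23% and 10.3% of all genes. The 3 CC-885 values lay above the 3 DMSO values in 15 repair genes and below them in 4, beside 29.9% and 31.2% of all genes. In bulk RNA, a change in the share of cells in a phase of the cell cycle and a change in RNA per cell cannot be told apart.

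Promoter sequence from RefSeq (GRCh38.p14) was matched by symbol for 31 of the 33 genes, without NBN and FANCI. The 250 bases before each annotated start were searched on both strands for 3 kinds of letters. E2F factors of the G1/S transition can bind TTCCCGC, its near form TTGGCGC and the less common variants TTCGCGC and, likewise searched here, TTGCCGC. The CHR letters of late cell cycle genes were TTTGAA and, in the second form, TTTAAA, and the NF-Y letters were CCAAT. The E2F letters TTGGCGC can overlap CCAAT read on the other strand. E2F letters were found for 11 of 31 repair genes (35.5%), beside 21.1% of 10698 tested genes with a window. They were found for 5 of 13 higher genes, 1 of 3 lower genes and 5 of 15 genes that did not pass the test, so the higher genes and those that did not pass held them at shares of 38.5% and 33.3%. CHR letters were found for 5 of 31 genes (16.1%, beside 19.6%) and CCAAT for 14 (45.2%, beside 41.6%). The 120 bases right before the most upstream start are shown for 2 higher genes with E2F letters, for 2 of the most changed higher genes without them, and for FANCF, the most changed lower gene. E2F letters and CCAAT (or ATTGG, its reverse complement) are in capitals.
RAD54L, chr1:46247568-46247687, plus strand: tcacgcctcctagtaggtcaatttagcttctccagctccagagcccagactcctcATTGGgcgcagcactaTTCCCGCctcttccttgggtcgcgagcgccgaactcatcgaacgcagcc
BLM, chr15:90717226-90717345, plus strand: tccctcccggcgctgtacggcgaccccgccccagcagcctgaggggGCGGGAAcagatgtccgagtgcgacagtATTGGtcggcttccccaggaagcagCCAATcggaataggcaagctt
BARD1, chr2:214809684-214809803, minus strand: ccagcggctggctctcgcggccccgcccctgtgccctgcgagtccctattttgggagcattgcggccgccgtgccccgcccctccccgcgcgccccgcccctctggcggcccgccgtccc
BRCA2, chr13:32315388-32315507, plus strand: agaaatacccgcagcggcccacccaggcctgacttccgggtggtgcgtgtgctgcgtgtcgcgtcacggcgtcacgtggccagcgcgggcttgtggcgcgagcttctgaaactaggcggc
FANCF, chr11:22625824-22625943, minus strand: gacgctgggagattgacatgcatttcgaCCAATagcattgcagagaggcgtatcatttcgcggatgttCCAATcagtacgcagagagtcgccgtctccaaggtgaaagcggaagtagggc
RAD54L and BLM each hold 1 E2F match in the stretch, FANCF holds 2 CCAAT matches and no E2F match, and BARD1 and BRCA2 hold neither. A match of letters is a description and not a binding site.

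Among the 11 recombination genes, 4 were higher (36.4%) and 1 lower (9.09%), beside 25.8% and 26.8% of all tested genes. BARD1 encodes the RING partner that BRCA1 needs to be stable and to act as a ubiquitin ligase. It stood at 55.6, 56.6 and 64.3 CPM under CC-885 and at 19.3, 26.0 and 19.3 CPM in DMSO. The lowest CC-885 library was above the highest DMSO library, and the log2 fold change was 1.45 (SE 0.15, edgeR adjusted p = 2.1e-05). BRCA1 itself was at 40.7, 43.9 and 49.3 CPM under CC-885 and 36.9, 39.0 and 38.8 CPM in DMSO. The groups did not overlap, but the difference was small and did not pass the test (0.22, SE 0.12, edgeR adjusted p = 0.151).

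BRCA2, which loads the recombinase, had 24.5, 20.2 and 31.1 CPM under CC-885 and 10.4, 11.8 and 11.2 CPM in DMSO. All CC-885 libraries were higher, with a wider spread than the DMSO libraries (log2 fold change 1.18, SE 0.17, edgeR adjusted p = 0.000209). PALB2, which bridges BRCA1 and BRCA2, had 33.9, 37.1 and 45.7 CPM under CC-885 and 21.0, 25.7 and 24.3 CPM in DMSO (0.72, SE 0.15, adjusted p = 0.00214). RAD54L, a motor protein that remodels DNA during strand invasion, had 54.3, 54.6 and 46.6 CPM under CC-885 and 34.1, 26.9 and 30.4 CPM in DMSO (0.77, SE 0.14, adjusted p = 0.000746). In PALB2 and RAD54L too the groups did not overlap. The exons of RAD54L share 25.1% of their bases with LRRC41 on the opposite strand, a gene at 76.5 CPM under CC-885 and 78.3 CPM in DMSO (log2 fold change -0.03).

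The 5 paralogs of the recombinase in the list, which assist filament assembly, had 1 member called. Of all tested genes 52.6% were called in either direction. RAD51D was lower, with 21.6, 22.3 and 23.5 CPM under CC-885 and 39.3, 33 and 36.2 CPM in DMSO (-0.69, SE 0.13, edgeR adjusted p = 0.00113). Its 2 groups were clearly apart. The neighbour RFFL, which a read-through transcript joins to RAD51D, went the other way (0.50, SE 0.14, adjusted p = 0.00893). The other 4 paralogs did not pass the test: RAD51B (0.39, adjusted p = 0.119), XRCC3 (0.05, adjusted p = 0.768), RAD51C (-0.23, adjusted p = 0.219) and XRCC2 (-0.32, adjusted p = 0.11). Calls of 2 of them changed under alternatives. RAD51B passed as higher without DMSO replicate 2 (0.59, edgeR adjusted p = 0.0283, with 0.0283 to 0.358 over all alternatives). XRCC2 passed as lower without CC-885 replicate 3 (-0.47, edgeR adjusted p = 0.037, with 0.0103 to 0.322 over all alternatives). With no library left out, XRCC2 also passed as lower with the replicate number as a block (-0.33, edgeR adjusted p = 0.0464). The same held with the GC and length offsets (-0.50, edgeR adjusted p = 0.0103). XRCC3 shares 76.7% of its exon bases with KLC1 on the opposite strand, so its counts are uncertain. RAD52, an annealing protein, was at 13.7, 13.6 and 12.6 CPM under CC-885 and 11.6, 10.6 and 12.5 CPM in DMSO, and it did not pass either (0.20, adjusted p = 0.256).

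Of the 6 genes of end resection and its helicase, 3 were higher (50%) and 0 lower (0%), beside 25.8% and 26.8% of all tested genes. EXO1, a nuclease that extends resection and also cuts in mismatch repair, changed most of the 33 genes. It had 278, 298 and 341 CPM under CC-885 and 98.3, 113 and 117 CPM in DMSO (log2 fold change 1.48, SE 0.14, edgeR adjusted p = 1.1e-05). RBBP8, also called CtIP, which starts resection together with MRE11, had 34.7, 41.7 and 43.1 CPM under CC-885 and 22, 25.8 and 23.4 CPM in DMSO (0.75, SE 0.14, adjusted p = 0.000972). BLM, a helicase that unwinds ends and dissolves joint molecules, had 58.1, 64.0 and 75.7 CPM under CC-885 and 35.8, 47.2 and 41.1 CPM in DMSO (0.67, SE 0.15, adjusted p = 0.00281). In all 3 of these genes every CC-885 library exceeded every DMSO library.

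The 3 genes of the MRN complex, the sensor that binds broken ends and activates ATM, did not pass the test, but MRE11 (-0.31, edgeR adjusted p = 0.00873, with 0.00873 to 0.922 over all alternatives) and RAD50 (-0.30, adjusted p = 0.0476, with 0.0476 to 0.936) were called lower with the GC and length offsets. MRE11, its nuclease, had 64.8, 61.5 and 71.7 CPM under CC-885 and 64.6, 77.8 and 69.7 CPM in DMSO (-0.10, SE 0.13, adjusted p = 0.529). RAD50, its coiled-coil ATPase, was at 24.9 ± 3.83 and 26.7 ± 3.28 CPM (mean ± SD, n = 3; edgeR adjusted p = 0.597), and shares 79.7% of its exon bases with a read-through gene on the same strand. NBN, the subunit that recruits ATM, was at 34 ± 1.29 CPM under CC-885 and 32.5 ± 7.35 CPM in DMSO (edgeR adjusted p = 0.75). The wide DMSO spread of NBN came from replicate 2 at 40.9 CPM, beside 28.0 and 28.5 CPM in the other DMSO libraries.

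**Figure D1:**
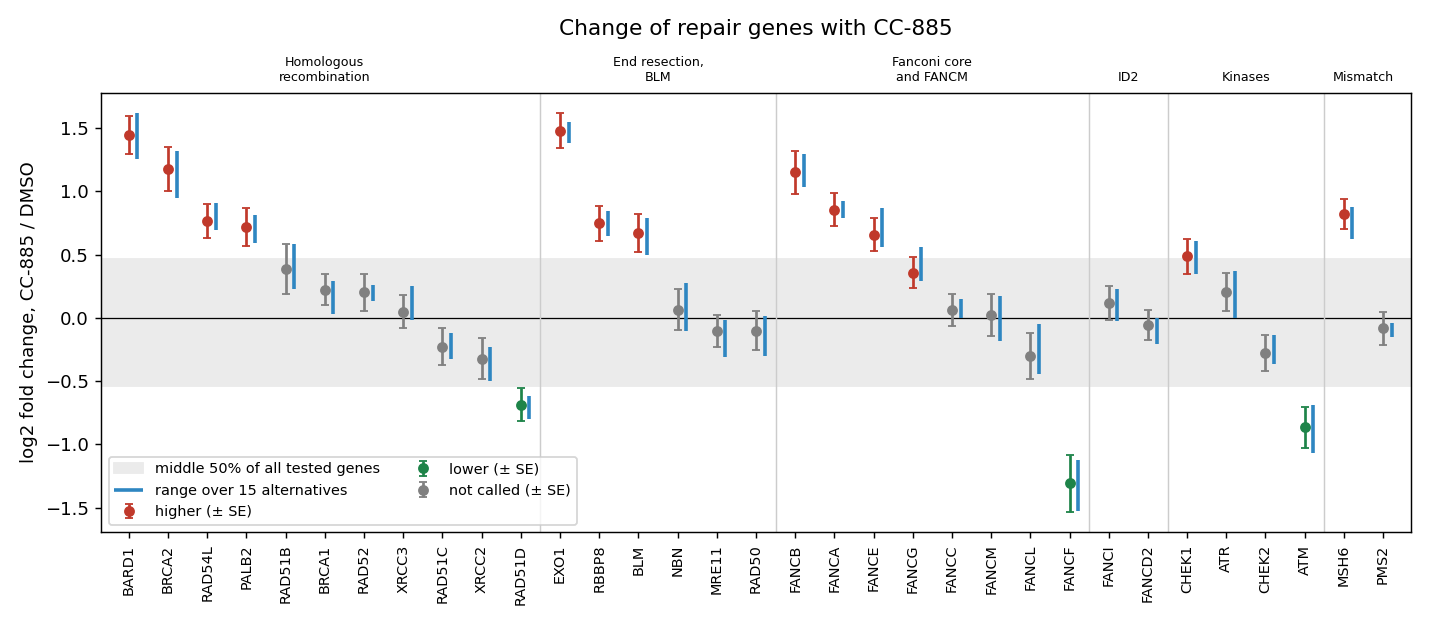
Log2 fold change of each repair gene (CC-885 over DMSO; points with SE bars; red called higher, green called lower, grey not called), with the range over 15 alternative analyses as a blue line and the middle 50% of all tested genes as a grey band. EXO1 at 1.48 and BARD1 at 1.45 lie highest and FANCF at -1.31 lowest, and the ranges of the 13 higher and 3 lower genes stay on their side of 0.

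Of the 8 genes of the Fanconi core complex and its anchor FANCM, 4 were higher (50%) and 1 lower (12.5%). Among all tested genes these shares were 25.8% and 26.8%. FANCB, an X-linked subunit of the catalytic module around the ubiquitin ligase FANCL, had 13.8, 16.2 and 17.6 CPM under CC-885 and 5.98, 8.44 and 7.03 CPM in DMSO (log2 fold change 1.15, SE 0.17, edgeR adjusted p = 0.000247). FANCA had 209, 219 and 188 CPM under CC-885 and 122, 103 and 115 CPM in DMSO (0.86, SE 0.13, adjusted p = 0.000266). Both genes were higher in all 3 CC-885 libraries than in any DMSO library. FANCA shares 23.6% of its exon bases with ZNF276 on the opposite strand, which was also called higher (0.33, adjusted p = 0.0333).

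FANCE, which contacts FANCD2, had 67.0, 79.7 and 64.0 CPM under CC-885 and 47.3, 41.0 and 45.1 CPM in DMSO (0.66, SE 0.13, edgeR adjusted p = 0.00157). FANCG, which binds FANCA, had 67.4, 70.3 and 59.3 CPM under CC-885 and 55.1, 50.01 and 48.5 CPM in DMSO. Its groups were apart by a narrow margin (0.36, SE 0.12, adjusted p = 0.0302). The call of FANCG was lost when 1 of 3 libraries was left out, namely CC-885 replicate 1 (edgeR adjusted p = 0.0884), the second CC-885 replicate (0.131) or the third DMSO replicate (0.0768), and also with scaling to library size only (0.0629) and with the stricter filter (0.0655). Over all alternatives it ran from 0.000864 to 0.131.

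FANCF, an adaptor of the core complex and a gene of a single exon, fell. It had 4.96, 2.83 and 3.69 CPM under CC-885 and 11.4, 9.18 and 7.73 CPM in DMSO, and was 2.47-fold lower (log2 fold change -1.31, SE 0.23, edgeR adjusted p = 0.000634). The highest CC-885 library was below the lowest DMSO library. Its opposite-strand neighbour GAS2 shares 11.3% of the exon bases of FANCF and was near 0 in all libraries, at a mean of 0.017 CPM in DMSO. FANCL (-0.30, adjusted p = 0.186), FANCC (0.06, adjusted p = 0.696) and the translocase FANCM (0.02, adjusted p = 0.918) did not pass the test. FANCL was at 18.9, 17.2 and 19.1 CPM with CC-885, and DMSO replicate 2 at 29.8 CPM stood above the other DMSO libraries at 19.9 and 18.3 CPM. Without DMSO replicate 3 FANCL passed as lower (-0.44, adjusted p = 0.0452, with 0.0452 to 0.786 over all alternatives). FANCL shares 18.7% of its exon bases with VRK2 on the opposite strand. VRK2 was at 35.8 CPM under CC-885 and 27.6 CPM in DMSO and did not pass (0.38, SE 0.15, edgeR adjusted p = 0.0505).

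Neither target of the core complex passed the test. FANCD2 had 55.4, 59.8 and 63.0 CPM under CC-885 and 63.4, 64.8 and 57.1 CPM in DMSO (-0.05, SE 0.12, edgeR adjusted p = 0.721). FANCI had 65.6, 61.5 and 73.4 CPM under CC-885 and 56.2, 70.0 and 58.5 CPM in DMSO (0.12, SE 0.13, adjusted p = 0.479). In both genes the groups overlapped. FANCD2, like CHEK2 and PMS2, has pseudogene copies in the genome, so its counts depend on how reads with several matches were assigned.

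Of the 4 checkpoint kinases 1 was higher and 1 lower, or 25% each, close to the 25.8% and 26.8% of all tested genes. ATM, the kinase that answers double-strand breaks, fell from 58.5, 78.3 and 56.9 CPM in DMSO to 33.4, 31.4 and 41.6 CPM under CC-885 (log2 change -0.86, SE 0.16, edgeR adjusted p = 0.00107). Every CC-885 library was below every DMSO library. CHEK2, the kinase that ATM activates, was at 26.2, 27.9 and 24.6 CPM under CC-885 and 30.1, 37.3 and 28.0 CPM in DMSO, without overlap but not called (-0.28, SE 0.14, adjusted p = 0.125). ATR, the kinase of stalled forks, had 47.0, 50.6 and 55.2 CPM under CC-885 and 41.1, 53.0 and 38.3 CPM in DMSO (0.21, SE 0.15, adjusted p = 0.26). Its groups overlapped through DMSO replicate 2, and without that library ATR passed as higher (0.37, adjusted p = 0.0274, with 0.0274 to 0.984 over all alternatives). CHEK1, the kinase that ATR activates, rose from 60.1, 71.7 and 55.4 CPM to 87.8, 78.1 and 96.6 CPM (0.49, SE 0.14, adjusted p = 0.0123). CHEK1 no longer passed once CC-885 replicate 3 was left out (adjusted p = 0.0529, with 0.00328 to 0.0529 over all alternatives).

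Of the 2 dedicated mismatch repair genes, MSH6 was higher and PMS2 did not pass. MSH6, which recognises base mismatches, had 98.0, 109 and 108 CPM under CC-885 and 58.8, 61.8 and 57.3 CPM in DMSO, with a narrow spread in both groups (0.83, SE 0.12, edgeR adjusted p = 0.000178). It shares 16.2% of its exon bases with FBXO11 on the opposite strand, which was also higher (0.68, adjusted p = 0.00657). PMS2, an endonuclease subunit, had 18.2, 19.4 and 19.9 CPM under CC-885 and 19.9, 20.1 and 21.0 CPM in DMSO (-0.08, SE 0.13, adjusted p = 0.611).

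Levels of different genes were compared as CPM per kb of annotated exon. With DMSO, EXO1 was highest at 26.4 CPM per kb, followed by FANCE (16.5), FANCG (14.2) and FANCA (11.7). The lowest were RAD51B (0.663), FANCM (0.871) and BRCA2 (0.91). RAD51B has 7.477 kb of annotated exon but a longest transcript of 2596 bases, so its place depends on the length used. FANCA likewise has 9.736 kb and 5451 bases, FANCG 3.614 kb and 2631 bases, and FANCE 2.692 kb and 2554 bases. The order of FANCE, FANCG and FANCA thus depends on the length used as well. With CC-885, EXO1 reached 73.8, FANCE 26.1, FANCA 21.1, FANCG 18.2 and RAD54L 16.1 CPM per kb, while FANCF stood at 1.3 and ATM at 1.48, below BRCA2 at 2.06. This order depends on the length used in the same way. ATM has 23.972 kb of annotated exon but a longest transcript of 13147 bases, beside 12.273 kb and 11986 bases for BRCA2. Its place below BRCA2 is therefore not firm.

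Ratios of partner genes within a library do not depend on the scaling between libraries. The 6 ratios of CPM per kb given here were chosen after the values of the genes were seen, and are a description. BARD1 over BRCA1 was 2.07, 1.95 and 1.98 under CC-885 and 0.793, 1.01 and 0.755 in DMSO. EXO1 over MRE11 was 8.6 ± 0.55 under CC-885 and 2.88 ± 0.226 in DMSO (mean ± SD, n = 3). ATR over ATM was 2.7, 3.09 and 2.54 under CC-885 and lay between 1.29 and 1.35 in DMSO. FANCE over FANCF ran from 14.8 to 30.8 under CC-885 and from 4.55 to 6.4 in DMSO, so this ratio varied widely among the CC-885 libraries. BRCA2 over PALB2 was 0.251 ± 0.0361 and 0.183 ± 0.00813, and RAD51C over RAD51D 1.45 ± 0.137 and 1.07 ± 0.239. For each of the 6 ratios the lowest CC-885 library was above the highest DMSO library, by a small margin for the last 2.

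**Figure D2:**
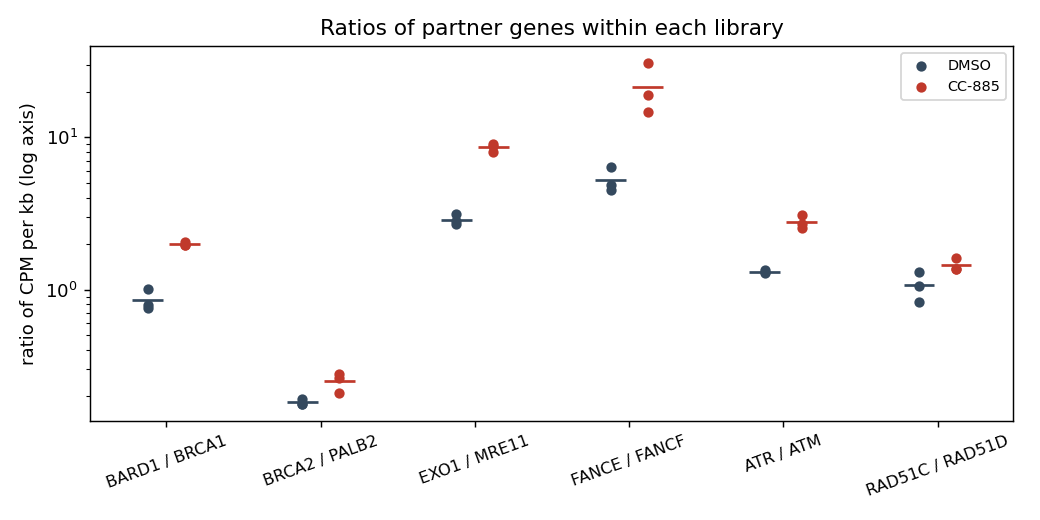
Ratio of CPM per kb between 2 repair genes in each library on a log axis, in DMSO in grey-blue and CC-885 in red, points for libraries and bars for the mean of 3. BARD1 over BRCA1 is near 2.0 in the 3 CC-885 libraries and at most 1.01 in DMSO, and FANCE over FANCF has the widest spread with CC-885.

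Features that were not used to choose the 33 genes differed in their medians from those of all genes, with no test of the difference, and varied widely among the members. The median GC content was 42.2%, beside 48.9% for the 13432 tested genes with a transcript sequence, the median genomic span 73.3 kb beside 32.1 kb, and the median number of exon blocks 19 beside 11. FANCF had 1 exon block and a span of 2.95 kb, and XRCC3 had a GC content of 63.8%. Over all tested genes, cut into 5 equal classes by GC content, the class with the lowest content had a median log2 fold change of 0.18 and that with the highest -0.22. From the lowest class to the highest, the repair genes had medians of 0.14 (12 genes, beside 0.18 for all genes of the class), 0.22 (11 genes, beside 0.05), -0.08 (5 genes, beside -0.03), 0.71 (4 genes, beside -0.17) and 0.05 (1 gene, beside -0.22). The 3 classes with the highest content held only 5, 4 and 1 repair genes, so nothing is read from the order of these medians. Once GC content and transcript length were taken up as offsets, the same number of repair genes (13) was higher, but 6 rather than 3 were lower, with XRCC2, MRE11 and RAD50 added. In that fit 30.4% of all genes were higher and 26.6% lower. The median log2 fold change of the repair genes was then 0.075 instead of 0.20, beside 0.01 for all genes.

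The other genes of these pathways were described by lists chosen by name. Of 36 other recombination genes, 14 were higher (38.9%) and 7 lower (19.4%), and the median change was 0.32 (log2). Of all tested genes 25.8% were higher and 26.8% lower. HROB (1.66), which brings a helicase to recombination sites, and PSMC3IP (1.17), a cofactor of strand exchange, were higher, while RPA1 (-0.79), the large subunit that coats single strands, and ABRAXAS1 (-1.09), of a BRCA1 complex, were lower. RPA1 went from 271 ± 19.9 to 157 ± 10.1 CPM. Of 16 other Fanconi genes, 4 were higher (25%, close to the 25.8% of all genes) and 1 lower (6.25%), with a median of 0.03. The helicase gene BRIP1, whose product binds BRCA1, went from 26.1 ± 2.1 to 69.7 ± 9.01 CPM (1.42), the ubiquitin ligase RFWD3 rose by 1.27 on the log2 scale, and FAAP24, the partner of FANCM, was lower (-0.94). Of 9 other mismatch repair genes, RFC1 was higher (0.60) and POLD1 lower (-0.41), or 11.1% each, and the median of that list was -0.07. PSMC3IP and ABRAXAS1 share 29.9% and 25.2% of their exon bases with genes on the opposite strand.

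Checkpoint adaptors, clamps and mediators had 12 of 20 genes higher (60%) and 2 lower (10%), with a median of 0.60, beside 25.8% and 26.8% of all tested genes. The phosphatase CDC25A, which CHEK1 marks for destruction, went from 54.7 ± 2.37 to 181 ± 16.1 CPM (1.72), and the break-site ubiquitin ligase RNF168 from 52.8 ± 0.108 to 111 ± 5.71 CPM (1.07). CDC25B (-0.50) and TIMELESS (-0.48) were lower. End joining, the competing route of break repair, had 3 of 17 genes higher (17.6%) and 4 lower (23.5%), with a median of -0.04. There POLQ (0.97) and LIG4 (0.85) were higher, and PARP1 (-0.84) and SHLD1 (-0.95) lower.

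The other repair routes are set beside the 25.8% higher and 26.8% lower of all tested genes. Base excision repair had 4 of 19 genes higher (21.1%), such as the glycosylases TDG (0.86) and MBD4 (0.81), and 2 lower (10.5%), the glycosylases NTHL1 (-0.82) and MPG (-0.64). NTHL1 and MPG share 16.5% and 27.3% of their exon bases with opposite-strand genes. Nucleotide excision repair had 6 of 18 higher (33.3%), with ERCC6 (0.76) and ERCC2 (0.59), and 4 lower (22.2%), with DDB2 (-1.32) and GTF2H5 (-1.64). Translesion polymerases and their partners had 4 of 8 higher (50%), with POLK (1.25) and REV3L (0.88), and 3 lower (37.5%), with POLN (-1.34) and POLI (-1.08) among them.

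Beside these, the list of replication licensing, forks and E2F had 23 of 35 genes higher (65.7%) and 1 lower (2.86%), with a median of 0.59. CDC6 (1.60) and E2F8 (1.87) were among the higher genes. The mitotic list had 3 of 25 higher (12%) and 5 lower (20%), with a median of 0.05. There KIF23 (0.74) and NDC80 (0.76) were higher, and KIF20A (-0.70) and PTTG1 (-0.63) lower. Of all tested genes 25.8% were higher and 26.8% lower. The share of higher genes among the 33 repair genes (39.4%) lay between those of the replication list (65.7%) and the mitotic list (12%). So did the share of all tested genes and those of most other repair lists. These shares describe the lists, and differences between them were not tested.

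**Figure D3:**
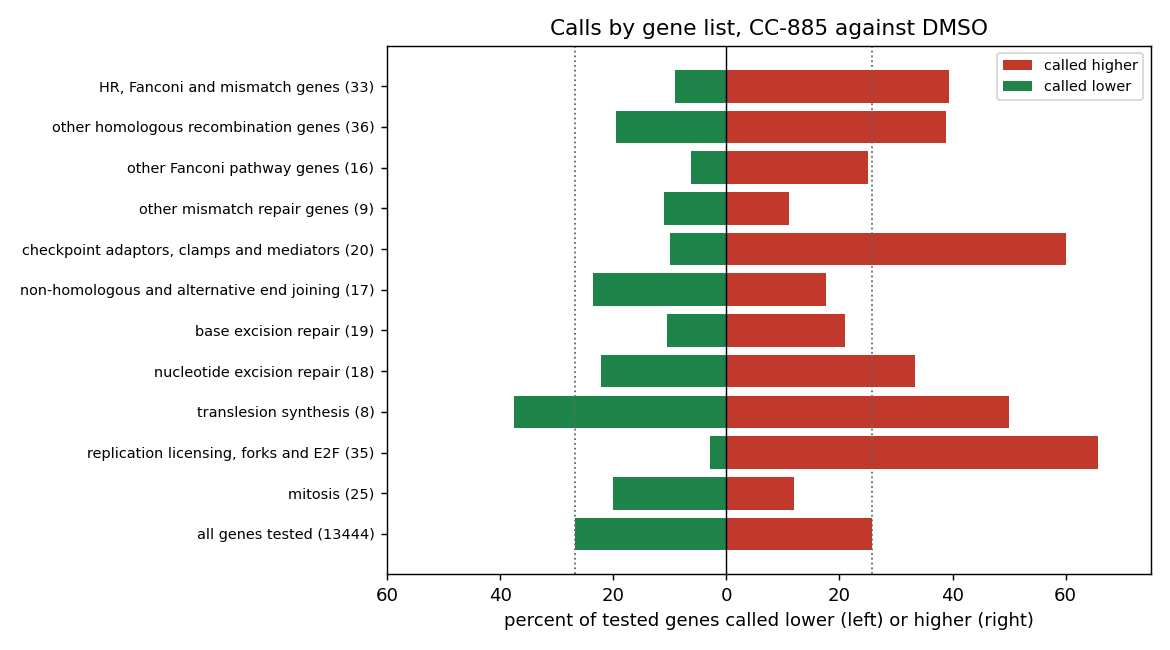
Percent of tested genes called higher (red, right) or lower (green, left) in each list, with the number tested in parentheses and dotted lines at the shares of all tested genes (25.8% higher, 26.8% lower). Replication genes (65.7%) and checkpoint adaptors (60%) have the longest red bars, and the 33 repair genes reach 39.4% higher and 9.09% lower.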

How the data were processed

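RNA was measured in 6 libraries of HCCLM3 cells. The authors deposited raw counts of whole numbers, with a row for each gene and a column for each library, per the file headers. The aligner, counting tool and strand setting were not given in the sources used here. Builds GRCm38 and mm10 (mouse) are listed per the submitters' processing notes, while the row identifiers are human Ensembl genes. Of values from 1 to 20, 66.8% were even, so fragments may have been counted more than once. The libraries held 30432509 to 39809131 counts.

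Rows were named by a gene name table (20148) or GENCODE 29 (76). CC-885 was compared with DMSO by the quasi-likelihood F test of edgeR 4.0.16 (R 4.3.3), with TMM factors, filterByExpr (minimum count 10), no covariate, and Benjamini-Hochberg adjustment over 13444 genes; calls are at an adjusted p below 0.05. SE is the size of the log2 fold change divided by the root of F. The code was tested on simulated data. Exon lengths and overlaps are from GENCODE 29. All 33 repair genes are named, and from each other list up to 2 higher and 2 lower genes with the smallest p. Some genes that this rule or the marker lists would name are not reported here. The members and lists were chosen with earlier results of these data known.

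As alternatives, scaling by DESeq2 size factors or by library size alone was run, and DESeq2 1.42.0, limma-voom (limma 3.58.1), no filter, a CPM of at least 5 in 3 libraries, a replicate block, halved counts, GC and length offsets, and leaving out each library.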

Additional observations from a re-analysis of the deposited data

How the results depend on the processing

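Under the 15 alternatives, 14 of the 16 called repair genes kept their call throughout, and FANCG and CHEK1 did not. The number of repair genes called higher was 12 or 13, apart from 15 without DMSO replicate 2, and the number called lower was 3 or 4, apart from the fit with GC and length offsets. With GC and length offsets 6 were lower and the median log2 fold change was 0.075 instead of 0.20, beside a median of 0.01 over all genes. With single libraries left out, the median ran from 0.11 to 0.25, higher genes from 12 to 15 and lower genes from 3 to 4. Of 495 values of single genes, 6 lost a call, 8 gained one and 17 changed sign, and none of the 6 genes that changed sign was called in the main analysis. Scaling to library size only gave XRCC3 -0.013, NBN -0.00080 and FANCM -0.041. The CPM filter of 5 gave XRCC3 -0.016, NBN -0.00035, FANCC -0.0019 and FANCM -0.042. GC and length offsets gave NBN -0.11, FANCM -0.18 and FANCI -0.026. With a library left out, XRCC3 ran from -0.017 to 0.11, NBN from -0.030 to 0.28, FANCM from -0.051 to 0.18 and RAD50 from -0.23 to 0.016. Below 0 were XRCC3 without DMSO replicate 3 (-0.017), NBN without DMSO replicate 1 (-0.030) or 3 (-0.025) and FANCM without CC-885 replicate 3 (-0.030), DMSO replicate 1 (-0.051) or 3 (-0.033), and RAD50 was above 0 without DMSO replicate 2. The cause of these changes was not tested.

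With the replicate number as a block, 13 repair genes were higher and 4 lower, XRCC2 being added (-0.33, edgeR adjusted p = 0.0464, with 0.0103 to 0.322 over all alternatives), and over all genes 3597 were higher and 3676 lower, instead of 3471 and 3598. Same-numbered libraries had correlations of their deviations from the group mean between 0.031 and 0.0958. CC-885 replicates 1 and 3 correlated most with the DMSO library of the same number (0.0958 and 0.0722). CC-885 replicate 2 correlated most with DMSO replicate 1 (0.0373, beside 0.0311 with DMSO replicate 2). The numbers are given only in the sample titles, so the block was kept as an alternative. Whether the libraries are paired was not tested. Counts of a repair gene in a library ran from 109 (FANCF) to 11718, so counting error is relatively larger for genes with few counts such as FANCF, RAD51B and FANCM, and its part in the spread between libraries was not tested.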
